A study of Homo sapiens with 10 samples.

Results

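The RNAs described here are 9 products of RNA polymerase III (Pol III), usually abundant in cells: the 7SL RNAs RN7SL1, RN7SL2 and RN7SL3, the 7SK RNA RN7SK, RMRP, RPPH1, the Y RNAs RNY1 and RNY3, and the vault RNA VTRNA1-1. They were chosen by gene symbol, with earlier results of these data known, and are 9 of the 62656 genes of the deposited expression table. Of the 9 genes, 6 had reads in at least 1 library, and RN7SL2, RN7SK and RPPH1 were listed at 0 in all 10 libraries. PC3 cells, a human prostate cancer cell line derived from a bone metastasis, were starved overnight and then treated for 24 h with the vehicle DMSO or with 1 µM GW3965, a synthetic agonist of the liver X receptors (LXR), in RPMI-1640 medium. There were 5 DMSO and 5 GW3965 libraries, all of the same line. The sources used here do not say whether these were separate cultures, so p-values measure the spread between the libraries, which may be technical. Libraries were prepared from total RNA with a stranded kit that removes ribosomal RNA, and were read as single reads of 50 bases.

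Pol III transcribes short untranslated RNAs. 7SL RNA is the scaffold of the signal recognition particle (SRP), which brings ribosomes that make secreted and membrane proteins to the endoplasmic reticulum. 7SK RNA holds the elongation kinase P-TEFb in an inactive complex with HEXIM and LARP7 proteins. RPPH1 is the RNA of RNase P, which trims the 5′ ends of tRNA precursors, and RMRP is the RNA of the related RNase MRP, which cuts the precursor of ribosomal RNA. Y RNAs bind the Ro and La proteins, and vault RNAs are a component of the vault particle. The human genome holds many copies of 7SL and 7SK, most of them annotated as pseudogenes.

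The 3 7SL genes lie on chromosome 14 and are single-exon genes in GENCODE 29 on GRCh38. Their transcripts are nearly the same, so that a read of 50 bases often fits more than 1 of them. RN7SL1 and RN7SL2 were identical at 98.3% of aligned positions, RN7SL1 and RN7SL3 at 97.7%, and RN7SL2 and RN7SL3 at 96.0%. Of the 250 windows of 50 bases in RN7SL1, 211 (84.4%) also stood in at least 1 other gene of the table. RN7SL2 held 158 of them, RN7SL3 held 86, and the pseudogenes RN7SL5P and RN7SL4P held 160 and 84. RN7SL3 was more distinct, with 88 of its 250 windows (35.2%) in another gene of the table. RMRP and VTRNA1-1 shared no such window with another gene of the table, RNY1 shared 16 of 64, and RNY3 shared all 53.

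**Figure D1:**
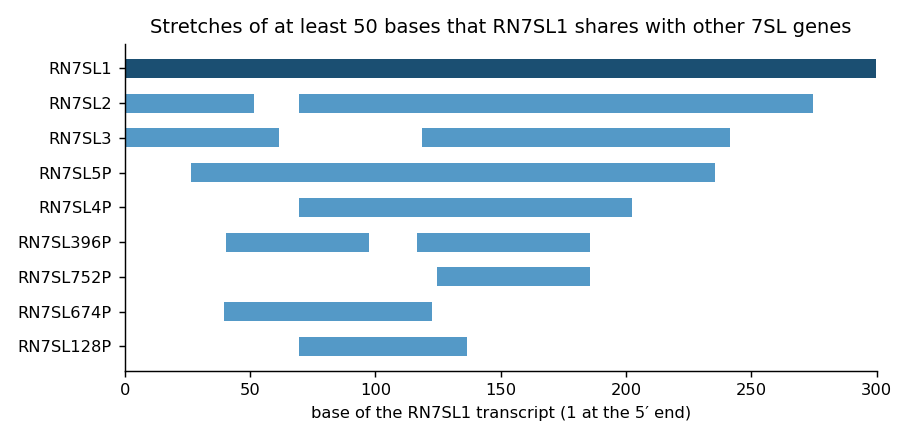
Stretches of RN7SL1 that stand unchanged in other 7SL genes, for runs of at least 50 bases. The x axis is the base of the RN7SL1 transcript counted from its 5′ end, and each row is a gene. Bases 125 to 185 are found in RN7SL2, RN7SL3, RN7SL5P, RN7SL4P, RN7SL396P and RN7SL752P.

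RN7SK lies on GRCh38 at chr6:52995621-52995948 on the plus strand. Its first 300 bases are printed because the copies with the most reads match its middle part. The capitals mark bases 87 to 231, which also stand in the pseudogene RN7SKP71.
RN7SK: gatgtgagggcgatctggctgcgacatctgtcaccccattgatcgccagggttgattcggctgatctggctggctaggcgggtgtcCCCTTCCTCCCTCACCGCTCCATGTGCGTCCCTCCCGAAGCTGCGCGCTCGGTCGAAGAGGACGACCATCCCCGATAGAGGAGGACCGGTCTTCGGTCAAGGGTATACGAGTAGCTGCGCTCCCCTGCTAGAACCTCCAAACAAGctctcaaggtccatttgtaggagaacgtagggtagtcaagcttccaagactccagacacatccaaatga

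RNY1 and the vault RNA are printed to show the run of T at their 3′ ends, in capitals, which is the usual stop signal of Pol III. RNY1 lies at chr7:148987136-148987248 on the minus strand and VTRNA1-1 at chr5:140711275-140711373 on the plus strand.
RNY1: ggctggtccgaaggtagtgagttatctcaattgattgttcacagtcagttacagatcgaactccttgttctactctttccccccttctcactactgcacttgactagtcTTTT
VTRNA1-1: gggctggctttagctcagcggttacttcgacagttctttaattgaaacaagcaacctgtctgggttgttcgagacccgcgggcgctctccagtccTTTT

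The letters TTTT within the last 10 bases were found in RNY1, RNY3 and VTRNA1-1 among the 9 transcripts, and in 5.72% of 203760 annotated transcripts of at least 99 bases. On the opposite strand no member and 9.65% of the transcripts held them. The letters GTTCNANNC, a form of the internal B box of Pol III promoters, were found in the first 100 bases of RNY1 and VTRNA1-1 and in 1.31% of the transcripts. On the opposite strand no member and 1.42% of the transcripts held them. RNY1 and RNY3 were identical at 71.7% of aligned positions.

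The libraries held 30431701 to 41638868 reads assigned to genes, as recovered from the RPKM. The treatment check gave the direction known for an LXR agonist: ABCA1, a cholesterol exporter, was at 3.43 ± 1.34 RPKM (reads per kilobase of gene, scaled between libraries by median-of-ratios size factors rather than by total reads, mean ± SD, n = 5) with DMSO and at 16.5 ± 2.37 RPKM with GW3965 (adjusted p = 0.00063). The log2 fold changes of ABCA1, ABCG1 and SREBF1 were 2.29, 2.13 and 0.74. Of the epithelial markers KRT8, KRT18 and KRT19 lay between 29.8 and 174 RPKM, EPCAM between 1.2 and 2.16, and CDH1 at or under 0.518. The luminal prostate marker KLK3 was listed at 0. The 6 markers of immune, endothelial and stromal cells were at or under 1.08 RPKM in all 10 libraries.

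RN7SL1 had the highest level of the 9 members. In bulk RNA, more RNA per cell and more cells that make an RNA cannot be told apart. RN7SL1 was at 169158, 134978, 174907, 176490 and 187804 RPKM in DMSO replicates 1 to 5, and at 115535, 133367, 215427, 168089 and 146202 RPKM in GW3965 replicates 1 to 5. GW3965 replicate 3 was the highest and GW3965 replicate 1 the lowest, and the groups overlapped. The means were 168668 ± 20010 RPKM with DMSO and 155724 ± 38481 RPKM with GW3965 (SD, n = 5 each). The difference on the log2(RPKM + 0.1) scale was -0.14 ± 0.20 (SE, limma adjusted p = 0.953), with a 95% interval of -0.58 to 0.30, or 0.669- to 1.23-fold.

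RN7SL3 was lower, with the same library highest and the same library lowest. It was at 116599, 71755, 118464, 111621 and 127302 RPKM in DMSO replicates 1 to 5, and at 62653, 76377, 147025, 104429 and 88826 RPKM in GW3965 replicates 1 to 5. DMSO replicate 2 stood below the other 4 DMSO libraries, and the groups overlapped. The log2 difference was -0.22 ± 0.25 (SE, limma adjusted p = 0.933), with a 95% interval of -0.77 to 0.33. RN7SL3 had 53.2% to 68.9% as many reads as RN7SL1 in the same library.

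RMRP, on chromosome 9 (chr9:35657754-35658017, minus strand), was steadier. It was at 7594, 8277, 7591, 7959 and 7270 RPKM in DMSO replicates 1 to 5, and at 6087, 6386, 7122, 7552 and 7438 RPKM in GW3965 replicates 1 to 5. The 2 lowest values were GW3965 replicates 1 and 2, and the highest 4 were DMSO libraries, but the groups overlapped. The log2 difference was -0.17 ± 0.09 (SE, unadjusted p = 0.0979, limma adjusted p = 0.792), with a 95% interval of -0.37 to 0.04, so that a fall beyond 0.775-fold lay outside it.

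The Y RNAs were far lower. RNY1 was at 48.4, 27.6, 37.1, 55.8 and 45.6 RPKM in DMSO replicates 1 to 5, and at 39.0, 41.4, 58.0, 84.5 and 49.2 RPKM in GW3965 replicates 1 to 5. GW3965 replicate 4 was the highest, and the other 4 GW3965 libraries lay between 39.0 and 58.0 RPKM. The log2 difference of RNY1 was 0.32 ± 0.23 (SE, limma adjusted p = 0.86).

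RNY3 was at 56.8, 24.98, 24.6, 47.1 and 32.7 RPKM in DMSO replicates 1 to 5, and at 19.0, 35.6, 47.1, 53.7 and 51.1 RPKM in GW3965 replicates 1 to 5. The highest value was a DMSO library and the lowest a GW3965 library. The log2 difference of RNY3 was 0.14 ± 0.32 (SE, limma adjusted p = 0.971). These values rested on 127 to 338 reads a library for RNY1 and 66 to 200 for RNY3, and any read of 50 bases from RNY3 could also have come from a copy.

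VTRNA1-1 was close to the limit of these libraries. It had 2, 5, 12, 4 and 0 reads in DMSO replicates 1 to 5 and 2, 4, 2, 7 and 0 reads in GW3965 replicates 1 to 5. The sums were 23 reads with DMSO (95% exact Poisson interval 14.6 to 34.5) and 15 with GW3965 (8.4 to 24.7), intervals that cover counting error only. DMSO replicate 3 held the most reads, and both groups had a library at 0, where the interval reached 3.69 reads. The log2 difference was -0.41 ± 0.98 (SE, limma adjusted p = 0.974), with an interval of -2.57 to 1.76.

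**Figure D2:**
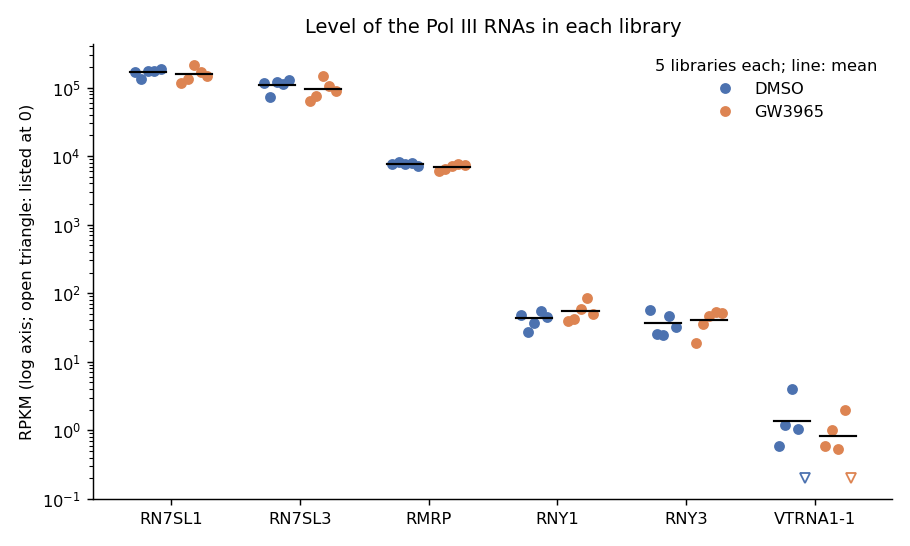
RPKM (log axis) of the 6 members with reads, 1 point per library and a line at the mean of each group of 5; open triangles are libraries listed at 0. The levels fall from about 10⁵ RPKM for RN7SL1 and RN7SL3 to near 1 RPKM for VTRNA1-1, and in each gene the groups overlap.

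None of the 6 tested members passed the threshold of an adjusted p of 0.05 in limma, and none had an unadjusted p under 0.05. Over all 20402 tested genes, 32 passed (0.157%) and 6.99% had an unadjusted p under 0.05. When limma voom was run on recovered reads, no member passed and RMRP alone had an unadjusted p under 0.05 (0.038, adjusted p = 0.704). With quantile normalization RMRP differed by -0.11 (unadjusted p = 0.00572, adjusted p = 0.307), and with library weights RNY1 differed by 0.57 (unadjusted p = 0.0313, adjusted p = 0.431). The groups did not overlap in 0 of the 6 members, against 1.84% of all tested genes. The median log2 difference of the 6 members was -0.15, with 2 higher and 4 lower, beside 0.00 over all tested genes. The RNY1 difference depended on the scaling: with each library scaled to the same total RPKM, it was 0.46 (limma unadjusted p = 0.0166, adjusted p = 0.856). The median of all tested genes was then 0.136.

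In order of level per length, RN7SL1 exceeded RN7SL3 in 10 of 10 libraries, RN7SL3 exceeded RMRP in 10 of 10, and RMRP exceeded RNY1 in 10 of 10. The ratios of the means were 1.58, 13.99 and 151. RNY1 exceeded RNY3 in 8 of 10 libraries (means 48.7 and 39.3 RPKM). The RPKM of RNY3 was 48.8% to 117% of that of RNY1 in the same library, and this difference was not tested. RNY3 exceeded VTRNA1-1 in 10 of 10 libraries.

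The spread within groups differed among the members. The within-group SD on the log2 scale was 0.11 for RMRP, at percentile 19.3 of all tested genes, 0.27 for RN7SL1 (percentile 70.7) and 0.40 for RN7SL3 (percentile 83.2). It was 0.42 for RNY1, 0.58 for RNY3 and 1.81 for VTRNA1-1. The median over all tested genes was 0.18, and it was also 0.18 over the 49 genes that averaged 1000 RPKM or more.

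The share of the 7SL members in the total RPKM differed between the group means by less than the SD of either group. RN7SL1, RN7SL2 and RN7SL3 together were 24.1%, 22.6%, 24.7%, 25.1% and 25.5% of the total RPKM in DMSO replicates 1 to 5, and 21.9%, 23.0%, 26.2%, 24.7% and 23.5% in GW3965 replicates 1 to 5. The means were 24.4% ± 1.14 with DMSO and 23.9% ± 1.66 with GW3965 (SD, n = 5 each). The highest and the lowest share were both GW3965 libraries. As a share of reads, which does not divide by length, the 7SL members were 8.32% ± 0.991 with DMSO and 7.54% ± 1.48 with GW3965.

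All 9 members together held 25.1% ± 1.03 of the total RPKM with DMSO and 24.5% ± 1.58 with GW3965 (SD, n = 5 each). RMRP added 0.515% to 0.904% of the total in a library, and RNY1, the highest of the others, at most 0.00766%.

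The share of RN7SL1 alone was steadier than its level. It lay between 14.2% and 15.6% of the total RPKM, with a coefficient of variation of 3.14% over the 10 libraries, while its RPKM varied 1.87-fold with a coefficient of 18.3%. The total moved with it: the summed RPKM of the table ran from 815065 to 1383778, a range of 1.70-fold. Without the 7SL members and the annotated 7SL copies it ran from 459448 to 536187, a range of 1.17-fold. For RMRP the order was the other way, with a coefficient of 9.07% for the RPKM and 15.2% for the share of the total.

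**Figure D3:**
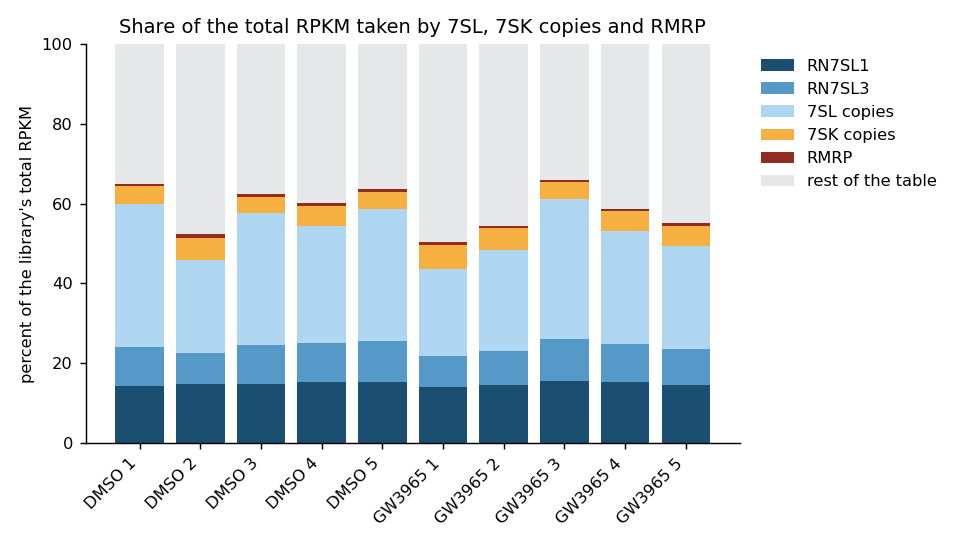
Share of each library's total RPKM (percent, stacked to 100%) held by RN7SL1, RN7SL3, the annotated 7SL and 7SK copies, and RMRP; the other members are too small to see and stand in the rest. The RN7SL1 segment stays between 14.2% and 15.6%, and the 7SL copies range from 21.8% to 35.8%.

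The annotated copies of 7SL held more RPKM than the members. The 677 copies, of which 169 were at 0 in every library, together took 30.9% ± 4.84 of the total RPKM with DMSO and 27.3% ± 4.94 with GW3965 (SD, n = 5 each). Members and copies of 7SL, 7SK and Y RNAs together took 60.7% ± 4.96 and 57.0% ± 5.84. How reads that fit several copies were assigned is not given in the sources used here, so these sums may hold the same read more than once and are not shares of molecules. For scale, 4 near-identical U1 small nuclear RNA genes, RNU1-1, RNU1-2, RNU1-3 and RNU1-4, were at 4867, 4632, 4877 and 4651 RPKM with DMSO.

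Of the 7SL copies, the 4 highest are named here after their values were seen. RN7SL5P was at 120404 RPKM on average over the 10 libraries, RN7SL4P at 87069, RN7SL396P at 60885 and RN7SL752P at 50044. Each held the stretch of RN7SL1 from base 125 to 185. The spread over the libraries differed among them. The coefficient of variation was 20.7% for RN7SL5P with 160 shared windows, 26.3% for RN7SL3 with 86, 30.6% for RN7SL4P with 84, 41.7% for RN7SL396P with 28, and 51.8% for RN7SL752P with 12. In lower copies a small overlap did not go with a wide spread: it was 24.5% for RN7SL674P with 34 shared windows and 16.9% for RN7SL128P with 18.

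RN7SL752P, a copy with few windows in common, varied strongly against RN7SL1 itself. Its reads were 45.1%, 15.7%, 38.1%, 28.96% and 38.2% of the RN7SL1 reads in DMSO replicates 1 to 5, and 12.5%, 18.8%, 38.0%, 24.5% and 21.1% in GW3965 replicates 1 to 5. Low values were found in both groups, in DMSO replicate 2 and in GW3965 replicates 1 and 2. The log2 difference of RN7SL752P was -0.68 ± 0.47 (SE, limma adjusted p = 0.851). What sets this ratio was not tested.

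**Figure D4:**
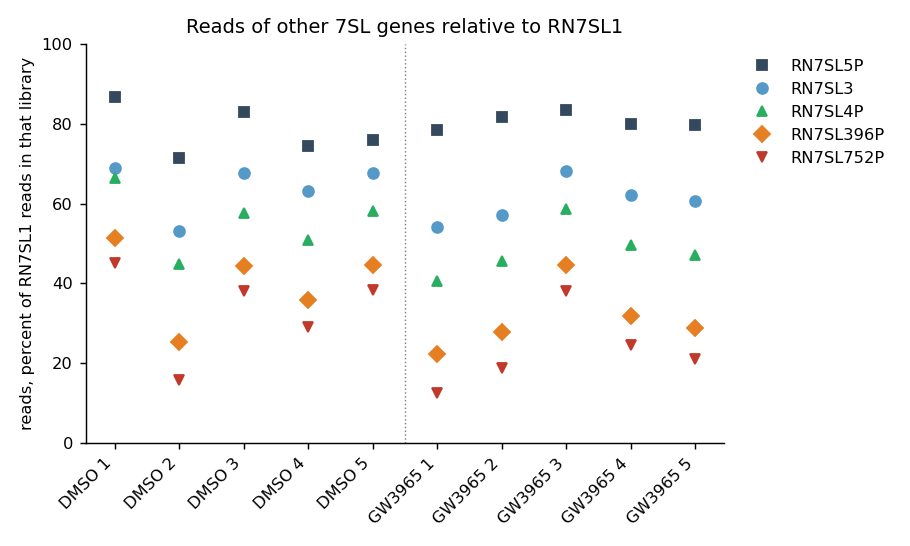
Reads of 5 other 7SL genes as a percent of the RN7SL1 reads of the same library (y axis), by library (x axis; dotted line between the groups). RN7SL5P stays between 71.5% and 86.7%, while RN7SL752P ranges from 12.5% to 45.1%, with high and low libraries in both groups.

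Among genes averaging 10 RPKM or more, the 5 whose levels over the 10 libraries were most like the summed 7SL level were all 7SL copies. By Pearson's r of log2(RPKM + 0.1) among 4343 genes they were RN7SL4P and RN7SL5P at 0.98, RN7SL396P and RN7SL752P at 0.97, and RN7SL665P at 0.96. These genes share stretches of sequence and libraries with the members, so r is a description and has no p.

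RN7SK, RN7SL2 and RPPH1 at 0 do not show that these RNAs were absent. All 328 bases of RN7SK lie in the exon of a second gene entry on the same strand, named RF00100 in the table, and all 333 bases of RPPH1 (chr14:20343075-20343407, minus strand) lie in exons of AL355075.4. Both of those entries were also at 0. Of the 656 table genes of at most 400 exon bases that lie wholly in exons of another gene on the same strand, 651 (99.2%) were at 0 in all libraries, against 5749 of 13316 (43.2%) with no such overlap. These overlaps are those of GENCODE 29, whose exon length fitted 26617 of the 47537 genes above 0. All 299 bases of RN7SL1 and all 264 of RMRP also lie in another same-strand GENCODE 29 entry, which is not in the table. Why RN7SK and RPPH1 were at 0 was not tested. RN7SL2 lies within the span of AL627171.2 but in none of its GENCODE 29 exons. The length of AL627171.2 inferred from its values was 2241 bases, 914 more than those exons. Whether a longer form covers RN7SL2 was not tested.

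Reads with 7SK sequence were listed under other entries, where reads from 7SK itself and from a copy cannot be told apart. Of 293 annotated 7SK copies, 127 were at 0, and together they held 53030 ± 3630 RPKM with DMSO and 52067 ± 3913 RPKM with GW3965 (SD, n = 5 each), or 4.73% ± 0.643 and 5.10% ± 0.667 of the total RPKM. Of the 279 windows of 50 bases in RN7SK, RN7SKP71 held 96, RN7SKP203 held 94, RN7SKP80 held 79 and RN7SKP255 held 62. A second entry named RF00100, not counted among the 293 copies, held 27 and was at 4692 RPKM on average over the 10 libraries.

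RN7SKP71, the highest of these copies and named after its values were seen, was at 16383, 16541, 15705, 18723 and 16496 RPKM in DMSO replicates 1 to 5. It was at 15967, 15657, 18182, 16206 and 15123 RPKM in GW3965 replicates 1 to 5. The log2 difference was -0.05 ± 0.10 (SE, limma adjusted p = 0.967), with a 95% interval of -0.26 to 0.17, and the groups overlapped. The 6 7SK copies above 1000 RPKM had log2 differences of -0.12 to 0.07, with the lowest for RN7SKP80 and the highest for RN7SKP255. Over the 10 libraries the summed 7SK copies varied 1.21-fold, against 2.73-fold for the summed 7SL copies.

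The genes of the proteins that bind these RNAs and of the enzyme that makes them showed no call at the RNA level. Of 67 tested genes in the 6 lists of Pol III subunits and factors, SRP, 7SK, RNase P and MRP, and Ro, La and vault proteins, 33 were higher and 34 lower with GW3965, and 0 passed the threshold. The median log2 difference was -0.01, beside 0.00 over all tested genes. An unadjusted p under 0.05 was found for 4 of 67, beside 6.99% of all tested genes, and voom gave 3 at that level and 0 past the threshold. Groups did not overlap in 1 of the 67, beside 1.84% of all tested genes.

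Of the 18 Pol III subunit genes, 7 were higher and 11 lower. The highest log2 difference was 0.09, for POLR2L, a subunit shared by the nuclear RNA polymerases. POLR3A, which forms the catalytic centre, differed by -0.01 ± 0.07 (SE). Among the genes of the 19 factors that place or restrain Pol III, SNAPC1 was highest at 0.28 and SNAPC4 lowest at -0.15. Both encode subunits of the complex that binds the promoters of small nuclear RNA genes. SNAPC1 lay at 11.4 ± 1.56 RPKM with DMSO and 13.9 ± 2.00 RPKM with GW3965 (SD, n = 5 each, unadjusted p = 0.0268, limma adjusted p = 0.608). MAF1, the repressor of Pol III, differed by -0.08 ± 0.08 (SE).

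The genes of the 8 SRP proteins and receptor subunits were within a narrow range, from SRP72 at 0.08 to SRPRB at -0.06. Of the 7 genes of the 7SK particle and P-TEFb, HEXIM2 was highest at 0.16 and HEXIM1 lowest at -0.13. HEXIM1, the inhibitor of P-TEFb, lay at 38.8 ± 2.32 RPKM with DMSO and 35.5 ± 1.24 RPKM with GW3965 (SD, n = 5 each, unadjusted p = 0.0406, limma adjusted p = 0.684). Among 10 tested genes of RNase P and MRP proteins the range was 0.04 for RPP25L to -0.14 for POP7.

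All 5 tested genes of Ro, La and vault proteins had a higher mean log2 level with GW3965, from PARP4 at 0.04 to MVP at 0.25. MVP, the main protein of the vault particle, was at 3.55, 3.29, 3.56, 3.54 and 2.91 RPKM in DMSO replicates 1 to 5 and at 4.31, 4.26, 3.96, 3.74 and 3.81 RPKM in GW3965 replicates 1 to 5. The groups did not overlap, and the test gave an unadjusted p of 0.00636 and a limma adjusted p of 0.383. SSB, the La protein, differed by 0.23 ± 0.10 (SE, unadjusted p = 0.0477, limma adjusted p = 0.711).

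Other Pol III RNAs were mostly low. Of 28 in the table, 26 were tested, 22 had a higher and 4 a lower mean log2 level with GW3965, and 0 passed the threshold in limma or in voom. An unadjusted p under 0.05 was found for 16 in limma and 14 in voom, beside 6.99% of all tested genes in limma. The lowest log2 difference was that of RNY4, at -0.70, and the highest that of the vault RNA VTRNA1-2, at 1.94. VTRNA1-2 had 0 or 1 read in each DMSO library and 0 to 6 reads in the GW3965 libraries. BCYRN1, a neuronal Pol III RNA related to the 7SL Alu domain, lay between 11.8 and 28.2 RPKM (log2 difference -0.27 ± 0.22, SE).

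The 5S ribosomal RNA genes made up most of that list. All 17 had a higher mean log2 level with GW3965, with log2 differences of 0.72 to 1.77 and a median of 1.16, and 14 had an unadjusted p under 0.05. The lowest limma adjusted p was 0.0773, for RNA5S12, which was at 1.46, 0.793, 0.555, 1.55 and 1.82 RPKM in DMSO replicates 1 to 5 and at 3.21, 2.73, 6.21, 4.51 and 4.15 RPKM in GW3965 replicates 1 to 5. Groups did not overlap in 3 of the 17, beside 1.84% of all tested genes. The summed reads of the 17 genes were 150, 115, 65, 113 and 186 in DMSO replicates 1 to 5 and 178, 291, 391, 300 and 240 in GW3965 replicates 1 to 5, so 1 GW3965 library lay below the highest DMSO library.

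These 17 genes are near-identical tandem copies that may share reads, so they are not counted as 17 separate observations. How reads that fit several of them were assigned is not given in the sources used here. 5S RNA also belongs to the ribosomal RNA that the kit removes. With each library scaled to the same total RPKM, 8 of the 17 passed (lowest limma adjusted p = 0.00276), beside 32 of all 20402 tested genes. The median of all tested genes was then 0.136 and that of the 17 genes 1.28. Library weights gave 2 past the threshold, beside 56 of all tested genes, and leaving out DMSO replicate 5 gave 1, beside 23. Other pieces of ribosomal RNA were named after their values were seen. RNA5-8SN4 was at 671 ± 212 RPKM with DMSO and 699 ± 182 RPKM with GW3965 (SD, n = 5 each). MIR3687-1, within the ribosomal RNA precursor, was at 29911 ± 4621 and 27666 ± 3262 RPKM. MIR3648-1 was at 19014 ± 3264 and 16392 ± 1665 RPKM, and RNA5-8SP6 at 10.5 ± 3.2 and 12.7 ± 6.6 RPKM. The groups overlapped in each, as they did in the summed reads of the 5S genes. The part of the depletion step in the 5S values was not tested.

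**Figure D5:**
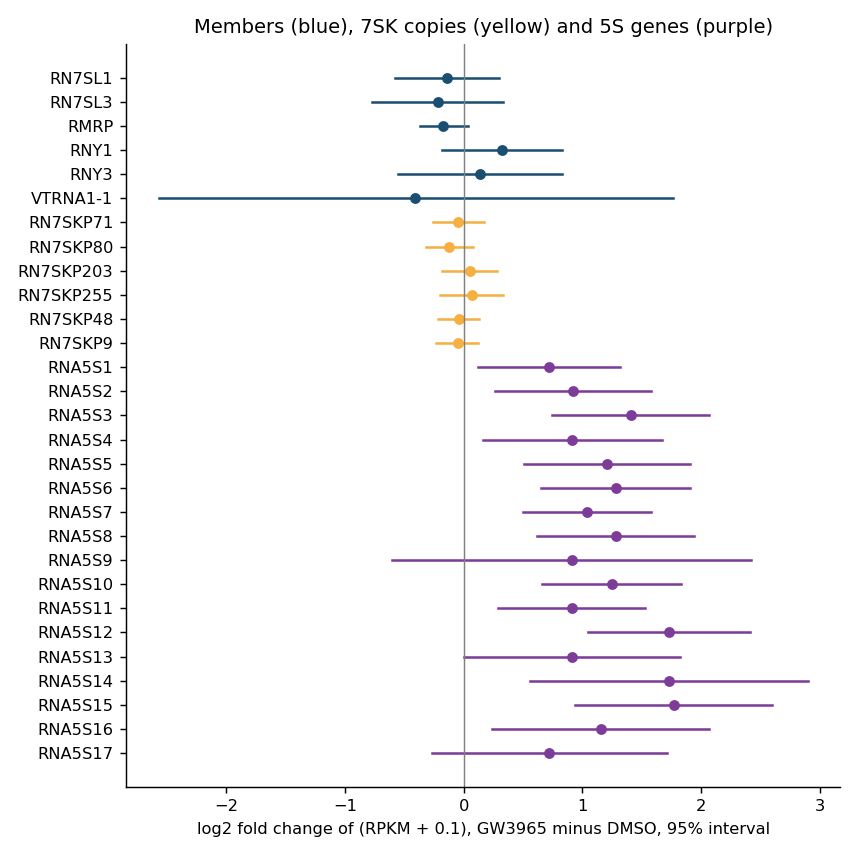
Log2 fold change of (RPKM + 0.1), GW3965 minus DMSO, with its 95% interval, for the 6 members with reads, the 6 annotated 7SK copies above 1000 RPKM and the 17 5S genes. The intervals of the members and 7SK copies include 0, as do those of RNA5S9, RNA5S13 and RNA5S17. The point estimates of the 5S genes lie between 0.72 and 1.77, and none of these genes passed the threshold.

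Small nuclear and nucleolar RNAs made by RNA polymerase II, of similar length, served as a comparison. Of 22 in the list, 15 were tested, with 7 higher, 8 lower and 0 past the threshold. The median log2 difference was -0.05, from RNU5B-1 at 0.34 to RNU5D-1 at -0.46, and no unadjusted p was under 0.05.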

How the data were processed

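Total RNA, which the labels call polyA RNA, was sequenced from PC3 cells in 5 DMSO and 5 GW3965 libraries. The deposited values are RPKM per gene, made by the authors. The submitters' processing notes name HISAT2 2.1.0, HTSeq 0.11.2, DESeq2 1.22.2 and the build hg38, while the study's methods name mm10. The gene identifiers are human, and the annotation release is not given in the sources used here. Sequences and positions were taken from GENCODE 29.

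Reads were recovered for the 47537 genes above 0. For 26617 of them the GENCODE 29 exon length gave whole reads. For the others the length was inferred, as the one with the smallest read numbers that came out whole. Of the values above 0, 99.99% stood for a number of reads that was whole to within 0.02. This is no check for genes with an inferred length. The library scaling in the RPKM equalled median-of-ratios size factors computed from the recovered reads, not total depth. The test took genes averaging 0.5 RPKM or more. It was run with limma 3.58.1 in R 4.3.3 (trend, two-sided, Benjamini-Hochberg over all tested genes) on log2(RPKM + 0.1), which understates changes of low genes. The scripts were tested on simulated data. Shares have no test. Alternatives were other pseudocounts, filters, scalings and weights, a replicate block, voom on recovered reads and leaving out each library.

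The members and lists were chosen with earlier results of these data known. Named were all members, in each list the genes past the threshold and the highest and lowest, and the 5 genes of at least 10 RPKM most like summed 7SL. Some genes and sequences are not reported here. Others were named after their values were seen, among them the copies, POLR3A, MAF1, BCYRN1, SSB and the ribosomal RNA pieces. Same-numbered libraries did not deviate together (r of -0.138 to 0.160).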

Additional observations from a re-analysis of the deposited data

Results flagged for a closer look

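In 70 groups of 5 libraries, from the members, their sums and copies, 7 had a library set apart from the other 4 by more than 0.71 of the range. Chance alone does this in about 1 group in 20 when groups are independent. These groups are not, since they hold the same genes as RPKM and as shares, and sums that contain them. The 7 are therefore not compared with that rate. DMSO replicate 2 accounted for 4 of the 7, all for RN7SL3 or for sums that contain it. It held RN7SL3 at 71755 RPKM (others 111621 to 127302) and at 7.84% of the total RPKM (others 9.71% to 10.3%). In the same library the 7SL members summed to 206734 RPKM (others 285758 to 315106) and the 9 members to 215064 RPKM (others 293457 to 322454). GW3965 replicate 3 held RMRP at 0.515% of the total RPKM (others 0.685% to 0.747%). Its RMRP level, 7122 RPKM, was the median of the GW3965 group, while its total RPKM, 1383778, was the highest of the 10 libraries. The same library held RN7SKP80 at 14062 RPKM (others 11796 to 12400). DMSO replicate 4 held RN7SKP71 at 18723 RPKM (others 15705 to 16541).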

How the results depend on the processing

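No member and no gene of the 6 protein lists passed the threshold under any of the 21 alternatives. Of 126 member values, 122 kept their direction. RN7SL1 was at 0.01 with library weights, RN7SL3 at 0.00 with quantile normalization, and VTRNA1-1 at 0.16 without DMSO replicate 3 and 0.26 without GW3965 replicate 5. VTRNA1-1 ran from -1.18, without DMSO replicate 5, to 0.26. When 1 library was left out, RN7SL1 ran from -0.27 (without GW3965 replicate 3) to -0.04 (without GW3965 replicate 1), and RN7SL3 from -0.39 to -0.08 without the same libraries. Without DMSO replicate 2 they were -0.22 and -0.37. RMRP stayed between -0.20 and -0.03. RNY1 ran from 0.15 to 0.57 and RNY3 from 0.01 to 0.46. The 32 genes past the threshold became 21 with no filter, 20 without the trend, 56 with library weights, 63 with voom, 16 with the replicate block and 17 to 38 when 1 library was left out: 18 without DMSO replicate 3, and 17, 19 and 17 without GW3965 replicates 2, 3 and 4. The replicate block changed no call of a member, whose numbers are not shown to pair the libraries, and 1 of 5 libraries correlated best with its own number. The cause of these shifts was not tested.

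The share of the 7SL members was 8.32% (DMSO) and 7.54% (GW3965) of reads, and with the copies 55.3% and 51.2% of the RPKM. For the 9 members these were 8.53% and 7.73%, and 60.7% and 57.0%. When 1 library was left out, the 7SL share ran from 24.1% to 24.9% with DMSO and 23.3% to 24.4% with GW3965, and the 9-member share from 24.8% to 25.5% and 23.99% to 25.02%. Depth limits VTRNA1-1, VTRNA1-2 and the 5S genes, with few reads a library.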

Other observations

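With the 7SL copies left out, the 5 genes of at least 10 RPKM whose levels were most like the summed 7SL level were AC008526.1 (Pearson's r of 0.94 over 10 libraries), OTUB1 (0.88), BOLA2B (0.87), PYGO2 (0.87) and AKT1S1 (0.85). They were picked as the highest of 4343 genes after the copies were seen to lead, and r is a description. Their levels moved little: AC008526.1 lay between 16.4 and 21.1 RPKM, and OTUB1 between 13.0 and 17.1 RPKM, while the summed 7SL level varied 2.03-fold.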
